A study of Mus musculus with 6 samples.

Results

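Heat shock chaperones and their partners were followed in the small intestine of mice with and without Cftr, the chloride and bicarbonate channel whose loss causes cystic fibrosis. Members were the genes whose symbols mark them as Hsp70, Hsp110, Hsp90, J-domain, Bag, mitochondrial Hsp60 or Hsp10, TRiC, small heat shock or Hsf genes. The endoplasmic reticulum chaperones Hspa5 and Hsp90b1 were left out. On the array, 88 probe sets stood for 59 such genes, out of 8251 genes with a single symbol. They were taken by symbol and not by a measured value, though earlier results of these data were known when the set was chosen. The selection by symbol also took in genes of other compartments: Dnajb9, Dnajb11, Dnajc1, Dnajc3 and Dnajc10 act in the endoplasmic reticulum, and Hspb11 is a part of the ciliary transport machinery. The set is therefore wider than cytosolic and mitochondrial chaperones.

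Groups were 3 Cftr(+/+) mice, called control, and 3 Cftr(-/-) mice, called null, all congenic on black6 and 40 days old. All 6 mice had been kept on Peptamen, a liquid diet used against obstruction of the gut, since day 10, so neither genotype was seen on ordinary food. Both groups had 2 males, the single female being control replicate 3 or null replicate 2. Total RNA of the whole small intestine of 1 mouse was read on each array, so all layers of the gut wall contributed.

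Hsp70 binds unfolded stretches of proteins and releases them as it exchanges nucleotides. J-domain proteins bring substrates to it and start its ATP cycle, whereas Hsp110 and Bag proteins reset it. Hsp90 matures signalling proteins such as steroid receptors, the ring-shaped TRiC complex folds actin and tubulin, and Hsp60 with Hsp10 folds proteins in mitochondria. Many of these genes are switched on by Hsf1 when proteins unfold, for example after heat or handling of tissue.

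Few of these chaperones passed the test between null and control intestine. Bag1, an exchange factor of Hsp70, rose in null mice, and 1 of 2 measured probe sets of Bag3 fell while the other did not. Of the 68 member probe sets bright enough to test, 1 was higher and 1 lower at an adjusted p under 0.05 in the limma fit over all probe sets. That is 2.94% of the members, beside 3.0% of the 7601 probe sets tested (1.13% higher and 1.87% lower in nulls). At an unadjusted p under 0.05 there were 9 member probe sets, or 13.2%, beside 17.3% of all. Groups did not overlap in 12 member probe sets, or 17.6%, beside 23.8% of all. On each of these counts the members lay near or below the background.

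Values are intensities in arbitrary units, and a log2 change is the difference between null and control means of log2(value + 12), which understates changes of dim genes. Of the 59 genes, 50 had a probe set above 109.7 units in at least 3 of the 6 arrays and were tested. The other 9 were Dnajb3, Dnajb4, Dnajb5, Dnajb8, Hsf2, Hsf4, Hspa1l, Hspa2 and Hspb1. With each gene read by the tested probe set of highest mean value, 32 of the 50 had a log2 change above 0 and 18 below 0. Their median was 0.12, beside 0.03 over all 5717 genes tested, of which 53.9% lay above 0. The median size of the change was 0.16 for members and 0.19 for all genes. No member gene (0 of 50) reached a log2 change of 1, which 3.62% of all genes did, and for 42 of the 50 the 95% interval lay within a 2-fold change either way.

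**Figure D1:**
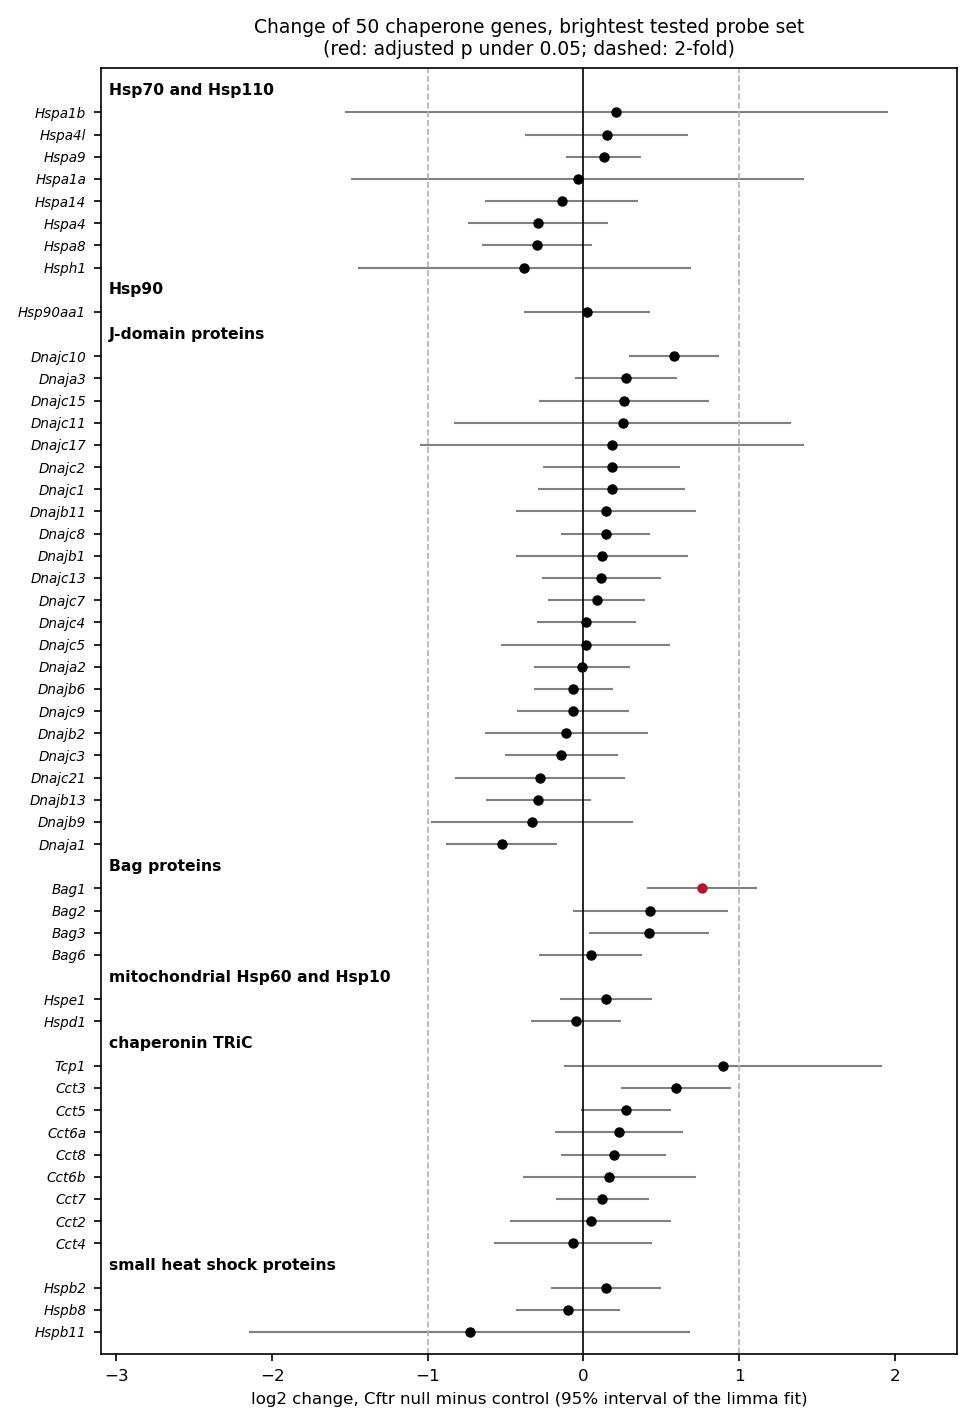
Log2 change of null against control for the 50 tested chaperone genes, by family, as points with the 95% interval of the fit as bars; dashed lines mark 2-fold. Bag1 (0.76) is the gene in red, and the widest bars belong to Hspa1b, Hspa1a, Hspb11 and Dnajc17.

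The arrays matched their labels for the targeted gene: the mean of Cftr was 940.4 ± 120.4 in controls and 330.0 ± 36.6 in nulls (SD over 3 mice, adjusted p = 0.00421 with limma). The part of Cftr that was altered is not given in the labels. Mean correlations of an array with the others of its group lay between 0.950 and 0.963, and the trimmed means between 499.4 and 499.9. Of 12 enterocyte markers measured, Akp3 and Mme fell and 0 rose, and the summed level was 135000 to 152400 in controls and 72120 to 111000 in nulls. Of 20 markers of proliferating crypt cells, Cks1b and Plk1 rose and 0 fell, and the sum was 12770 to 13420 in controls and 15340 to 16840 in nulls. Of 11 smooth muscle markers, Actg2 rose and 0 fell, with sums of 18910 to 26420 and 28120 to 32260. Of 5 mast cell markers Mcpt1, Mcpt2 and Cpa3 rose, with sums of 803.8 to 980.7 and 4628 to 12300. Kit (log2 change -0.04) and Tpsb2 (-0.38) did not pass. The risen markers had enough arrays above 109.7 to be tested only through their null values. Their share of the tested markers was thus partly set by the outcome. Of 7 leukocyte markers Lyz2 fell, with sums of 24770 to 27020 and 24640 to 27840. Most of these sums came from Ighm (means of 16960 in controls and 19680 in nulls) and Lyz2 (6598 and 3687). The sums thus say little of the other leukocyte markers. Of the 7 tested, 5 log2 changes were below 0 and 2 above 0. The counts of markers are of those tested, whereas each sum took in all listed genes on the array, tested or not. In the order given, the sums covered 12, 22, 11, 9 and 14 genes. None of these markers was at 0 in any array (0 in each list), those of the labelled tissue included. In whole tissue, fewer cells of a type and less RNA per cell cannot be told apart, and the part of these markers in the chaperone values was not tested.

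Among Hsp70 and Hsp110 genes, 0 of 8 tested genes passed. The stress-inducible Hsp70 genes, Hspa1a and Hspa1b, encode nearly the same protein, and their transcripts are so alike that probes may not tell them apart. Their values differed far more between mice of one group than between the groups. Hspa1b was at 291.5, 1163 and 250.2 in control replicates 1 to 3 and at 208.4, 455.6 and 1399.7 in null replicates 1 to 3. Hspa1a was at 223.3, 577.5 and 246.2 in controls and at 167.5, 192.3 and 893.4 in nulls. Control replicate 2 and null replicate 3 were thus the highest of their groups for both genes, and the groups overlapped. The log2 changes of 0.21 for Hspa1b (SE 0.75, adjusted p = 0.915) and -0.04 for Hspa1a (SE 0.63, adjusted p = 0.985) had 95% intervals from -1.53 to 1.95 and from -1.49 to 1.41. A 2-fold change of either gene in either direction is thus inside the interval.

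The upstream sequences of these genes are shown because heat shock factors act on them through repeats of the unit GAA and its complement TTC. They are the 250 bases before the start of transcription, 5′ to 3′, from the RefSeq promoter table for build GRCm38.p6. Hspa1a lies at chr17:34972157-34972406 (minus strand), Hspa1b at chr17:34959239-34959488 (minus strand) and Hsph1 at chr5:149636337-149636586 (minus strand). Capitals mark each match to GAANNTTC or, a form added after the sequences were seen, TTCNNGAA.
Hspa1a: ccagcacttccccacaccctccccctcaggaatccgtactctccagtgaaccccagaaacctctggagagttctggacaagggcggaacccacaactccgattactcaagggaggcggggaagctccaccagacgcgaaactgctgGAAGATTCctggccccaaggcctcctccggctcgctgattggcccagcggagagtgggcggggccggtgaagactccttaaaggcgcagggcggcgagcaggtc
Hspa1b: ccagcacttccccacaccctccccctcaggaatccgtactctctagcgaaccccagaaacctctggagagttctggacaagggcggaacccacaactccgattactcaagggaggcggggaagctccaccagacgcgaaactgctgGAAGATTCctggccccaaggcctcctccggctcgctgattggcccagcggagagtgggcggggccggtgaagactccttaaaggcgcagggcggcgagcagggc
Hsph1: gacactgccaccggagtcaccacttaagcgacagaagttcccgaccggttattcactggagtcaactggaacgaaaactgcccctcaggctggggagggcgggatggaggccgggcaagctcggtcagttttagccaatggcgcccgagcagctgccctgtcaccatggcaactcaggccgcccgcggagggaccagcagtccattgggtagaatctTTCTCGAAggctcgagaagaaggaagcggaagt
Over these 250 bases Hspa1a and Hspa1b differed at 3 positions and were 98.8% identical, and the match began 104 bases before the start in both. In Hsph1 the match began 33 bases before the start. Both forms read the same on either strand, and they overlap where 3 units follow each other. The promoter table held 50 of the 59 members. GAANNTTC was present in the windows of 8 of these 50, or 16.0%, beside 7.73% of 27025 genes in the table, and TTCNNGAA in 7, or 14.0%, beside 8.12%. Windows with 3 alternating units in a row were found for Hspd1, Hspe1 and Dnajb6, or 6% of members, beside 0.514% of all genes. Hspd1 and Hspe1 are known to share 1 promoter between them. No match was found for Bag1, Bag3 or Dnajb1, which says only that these letters are not in these windows.

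Hsph1, the Hsp110 protein that resets Hsp70, followed the same mice. It was at 886.3, 1898 and 1475 in control replicates 1 to 3 and at 550.8, 990.7 and 2039.8 in null replicates 1 to 3. The highest and the lowest of all 6 values were both in null mice, and the log2 change was -0.38 (SE 0.46, adjusted p = 0.714). Hspa8, the constitutive Hsc70, was at 4871, 5896 and 5534 in controls and 3676, 4541 and 5123 in nulls. Its groups overlapped, and its log2 change was -0.30 (95% interval -0.64 to 0.05, adjusted p = 0.358). Hspa4, a second Hsp110 protein, gave log2 changes from -0.29 to 0.23 over its 4 tested probe sets, the lowest from a null replicate 1 value of 947.1 beside 1445 and 1579 in the other nulls. Hspa9, the mitochondrial Hsp70, was at 2152, 2036 and 1948 in controls and 2229, 2253 and 2238 in nulls. Its groups did not overlap, yet the log2 change was 0.13 (SE 0.10, adjusted p = 0.566). The ribosome-associated Hspa14 (log2 change -0.14) and the Hsp110 protein Hspa4l (log2 change 0.15) did not pass either.

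The only Hsp90 member on the array, Hsp90aa1, is the stress-inducible cytosolic form. It was at 3413, 3644 and 3524 in controls and 2912, 3394 and 4665 in nulls, so that the nulls lay on both sides of the controls. Its log2 change was 0.02 (95% interval -0.37 to 0.42, adjusted p = 0.958). Of 15 co-chaperones of Hsp90 and Hsp70 measured, 0 rose and 0 fell. Stub1, the ubiquitin ligase that sends chaperone clients to degradation, had groups that did not overlap. Its means were 974.8 ± 72.7 and 765.6 ± 21.3 (SD, n = 3 each), but its log2 change of -0.34 did not pass (adjusted p = 0.169). The co-chaperones with the highest values, Fkbp4 and Fkbp8, both immunophilin family members, had log2 changes of -0.01 and -0.16.

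Several genes shared the split by mouse seen in Hspa1a, Hspa1b and Hsph1. Within-group spread was computed as the SD of log2 values inside the groups. It was 1.27 for Hspa1b and 1.05 for Hspa1a, and 0.316% and 0.763% of all tested probe sets had a spread as large. Hsph1 had a spread of 0.77, which 3.09% reached. The dimmer probe set of Dnajb9, a J-domain protein of the endoplasmic reticulum, had a spread of 0.79, which 2.84% reached. In all, 9 of the 68 member probe sets, or 13.2%, were among the 5% of tested probe sets with the widest spread. The other 5 were single probe sets of Tcp1, Dnajc11, Dnajc17, Hspb11 and Hspd1, each with at least 1 value below 109.7. The median spread was 0.21 for members and 0.21 for all probe sets.

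Of the 50 member genes, 15, or 30.0%, were highest in control replicate 2 among controls and also highest in null replicate 3 among nulls, beside 17.6% of all genes tested. These mice were singled out from Hspa1a, Hspa1b and Hsph1, which are among the 15, so the share is a description and partly restates that choice. Without those 3 genes it was 12 of 47, or 25.5%. The 15 included Hspa8, Hsp90aa1, Dnajb1, Dnajb9 and Bag3. Null replicate 3 was the highest null for 26 of the 50 and null replicate 1 for 7, or 52.0% and 14.0%, beside 34.9% and 29.4% of all genes. Hspa1a, Hspa1b and Hsph1 are counted in the 26, so these shares too are a description that partly restates the choice. The heat-inducible cytosolic J-domain protein Dnajb1 was at 491.1, 598.9 and 427.1 in controls and 412.0, 509.7 and 768.9 in nulls. The brighter Dnajb9 probe set was at 937.9, 1418 and 1057 in controls and 679.0, 747.0 and 1383 in nulls, and the dimmer at 266.0, 788.9 and 234.2 and at 232.0, 248.4 and 510.0. Neither gene passed between the groups (adjusted p = 0.839 for Dnajb1, 0.599 and 0.837 for Dnajb9).

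Outside the members, 3 of the 15 co-chaperones measured, or 20%, were highest in the same mice, near the 17.6% of all genes tested. They were Fkbp5, Chordc1 and St13, and were looked up after the member values were seen. Fkbp5, an Hsp90-binding immunophilin that glucocorticoids induce, was at 185.5, 2159 and 597.9 in controls and 260.0, 192.1 and 1585 in nulls. Its spread of 1.67 was reached by 0.0921% of tested probe sets. Chordc1, a heat-inducible Hsp90 partner, was at 638.6, 1316 and 716.0 in controls and 574.4, 726.1 and 1254 in nulls. St13, which links Hsp70 to Hsp90, varied less, at 489.0, 631.8 and 459.1 in controls and 443.8, 538.5 and 636.4 in nulls. Of 8 other stress-induced genes, Hmox1 and Gadd45a, or 2 of 8, had the same mice highest. Hmox1, which breaks down heme, was at 704.6, 738.8 and 664.8 in controls and 526.1, 664.7 and 841.6 in nulls. Gadd45a, a gene of the DNA damage response, was at 944.8, 1298 and 1057 in controls and 705.9, 765.2 and 976.3 in nulls. The spreads of St13, Hmox1 and Gadd45a were ordinary, reached by 39.7%, 41.3% and 43.0% of tested probe sets. The metallothioneins Mt1 and Mt2, induced by metals and stress hormones, showed another order: Mt1 was at 9767, 4348 and 3820 in controls and 7426, 6874 and 3847 in nulls. The immediate early gene Fos, at 4697, 4334 and 3894 in controls and 1916, 2527 and 4195 in nulls, was highest in control replicate 1, and 0 of 13 immediate early genes had both mice highest. The share was 3 of 10 for the mitochondrial list, 1 of 12 for endoplasmic reticulum chaperones and 0 of 6 for prefoldin and its cofactors. Among cell type markers it was 5 of 20 for proliferating crypt cells, or 25%, near the 25.5% of members without the 3 choosing genes. It was 1 of 5 for mast cells, 1 of 12 for enterocytes, 0 of 11 for smooth muscle and 0 of 7 for leukocytes. Of 13 immediate early genes and of 8 other stress-induced genes, 0 passed in either direction.

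For actin, 3' signal over 5' signal was 1.20 in control replicate 2 and 1.117 in null replicate 3, and 1.123 to 1.201 in the other 4 arrays. For Gapdh it was 0.789 and 0.749, and 0.786 to 0.826 in the other 4. Null replicate 3 thus had the lowest ratio of the 6 arrays for both genes. Both mice were males, as were control replicate 1 and null replicate 1. Their part in the spread was not tested. With both mice left out, a choice made after the values were seen, 0 members rose and 0 fell, and the median log2 change over members was 0.05. That fit had fewer mice per group, and how many of all probe sets passed in it is not given here. The count of 0 is therefore not a result about the members.

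**Figure D2:**
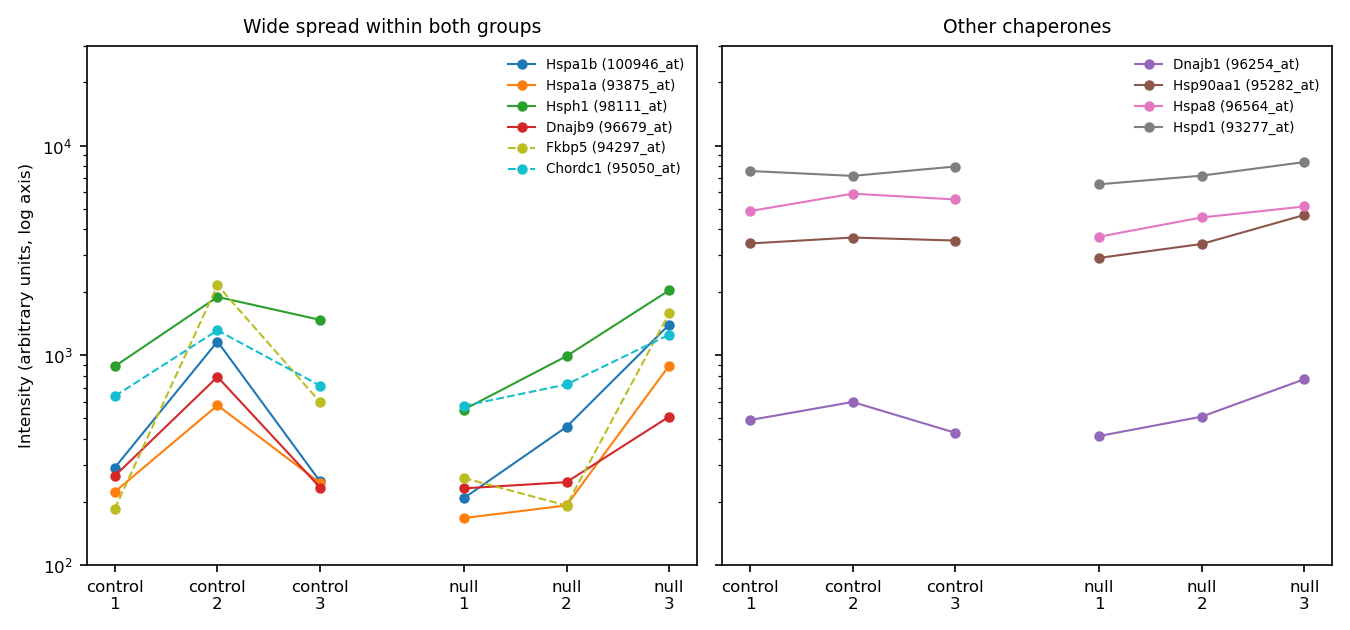
Intensity (log axis) in each of the 6 mice for chaperone genes; lines join the mice of a group to make a gene's points easy to follow, and replicate numbers carry no order. On the left, 4 member probe sets and, dashed, Fkbp5 and Chordc1 are highest in control replicate 2 and null replicate 3; on the right, Dnajb1, Hsp90aa1, Hspa8 and Hspd1 vary less, and levels of different probe sets cannot be set against each other.

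Of the J-domain genes, 0 of 23 tested genes passed, with 14 log2 changes above 0 and 9 below 0 and a median of 0.08. Dnajc10, a disulfide reductase of the endoplasmic reticulum that helps misfolded proteins leave it, lay just outside the threshold. It was at 804.7, 724.3 and 733.4 in controls and 1236, 1016 and 1157 in nulls. All nulls lay above all controls, and the log2 change was 0.58 (SE 0.12, adjusted p = 0.0508). It passed with a pseudocount of 48 (adjusted p = 0.0495), with the stricter filter (adjusted p = 0.036) and with robust variances (adjusted p = 0.0498). It did not pass with quantile normalization, equal medians, a pseudocount of 3 or sex as a covariate. The share of all probe sets called in these settings is not given here, so Dnajc10 is not counted as changed. Its 4 companions in that compartment did not pass: Dnajb11 had a log2 change of 0.15, Dnajc1 of 0.18, Dnajc3 of -0.14 and Dnajb9 of -0.33, the last 2 from their probe sets of highest value. Of 12 endoplasmic reticulum chaperones measured besides, 0 rose and 0 fell. Hspa5, the Hsp70 of that compartment, had means of 6674 ± 1619 and 5985 ± 1114 (control and null, SD, n = 3 each; adjusted p = 0.751). Its partner Hsp90b1 had means of 4104 ± 276 and 4078 ± 398 (adjusted p = 0.974).

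Dnaja1, a cytosolic partner of Hsp70, was lower in every null mouse than in any control. It was at 2013, 2169 and 2644 in controls and 1380, 1794 and 1551 in nulls. The log2 change was -0.53 (SE 0.15), and it did not pass (adjusted p = 0.122). Its relatives Dnaja2 and Dnaja3, of the cytosol and the mitochondria, had log2 changes of -0.01 and 0.27. Dnajb13, known from the sperm flagellum, was at 240.4, 274.8 and 245.9 in controls and 202.4, 208.4 and 203.6 in nulls, a log2 change of -0.29 (adjusted p = 0.346). The groups of Dnajc21, a factor of ribosome assembly, did not overlap either, at 114.9 to 135.9 in controls and 86.3 to 114.4 in nulls (log2 change -0.28).

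The other J-domain genes had overlapping groups and, by their probe set of highest value, log2 changes between -0.11 (Dnajb2) and 0.26 (Dnajc15). Those of known role were Dnajb6, which holds back protein aggregation (-0.07 and 0.25 from 2 probe sets), Dnajc2 of the ribosome (0.18), the vesicle protein Dnajc5 (0.01), the Hsp70 and Hsp90 binder Dnajc7 (0.08) and the endosomal Dnajc13 (0.11). The splicing-related Dnajc8 (0.14), the histone-binding Dnajc9 (-0.07), the mitochondrial Dnajc15 (0.26) and Dnajc11 (0.25), and Dnajc4 (0.02) and Dnajc17 (0.18) were the remainder. Dnajc11 and Dnajc17 had 95% intervals that reached 2-fold, and values down to 86.1 and 55.2.

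Both calls fell in the Bag family, 1 higher and 1 lower over 9 tested probe sets of 4 genes. Over all probe sets tested, 1.13% were called higher and 1.87% lower. So few calls do not set the family apart. Bag1, which speeds nucleotide release from Hsp70 and also binds the survival protein Bcl2, was at 638.5, 573.4 and 823.1 in controls. In nulls it was at 1177, 1160 and 1101. No null value came near the controls, and the means were 678.3 ± 129.5 and 1146 ± 40.3 (SD, n = 3 each). Bag1 rose by 0.76 in log2, or 1.70-fold (SE 0.15, adjusted p = 0.0416 with limma). The rise lost its call when 1 mouse was left out in 5 of 6 cases (adjusted p from 0.0857 to 0.146) and kept it without control replicate 3 (adjusted p = 0.0228). It also lost it under quantile normalization (adjusted p = 0.0507) and with equal medians (adjusted p = 0.0549). Leaving out a mouse leaves fewer to compare, and the share of all probe sets called in these settings is not given here.

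Bag3, which works with the small heat shock protein Hspb8 to send damaged proteins to autophagy, gave opposite readings. Its dimmer probe set was at 414.2, 459.0 and 376.4 in controls and 171.7, 224.1 and 250.5 in nulls. With no overlap, this reading fell by 0.93 in log2 (SE 0.17; adjusted p = 0.0341), and its name marks possible cross-hybridization. Its brighter probe set carries no such mark and was at 318.7, 362.7 and 294.9 in controls and 459.8, 360.3 and 506.5 in nulls. There the log2 change was 0.42 (SE 0.16, adjusted p = 0.244), the opposite sign, and the groups overlapped. No direction is therefore given for the gene. The call on the dimmer probe set was lost when any 1 of the 6 mice was left out (adjusted p from 0.0565 to 0.121). Those fits had fewer mice, and the share of all probe sets called in them is not given either.

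Bag2, which restrains Stub1, was at 355.1, 420.3 and 335.4 in controls and 459.1, 474.7 and 503.5 in nulls on the probe set without a name mark. The groups did not overlap, and the log2 change was 0.37 (adjusted p = 0.210). A second Bag2 probe set gave 0.43 with overlapping groups (adjusted p = 0.345). Bag6, which guides tail-anchored and mislocalized proteins, was read by 4 tested probe sets with log2 changes from -0.17 to 0.05. The summed level of proliferation markers given above was also higher in all nulls than in any control, as was Bag1, and its part in that rise was not tested.

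**Figure D3:**
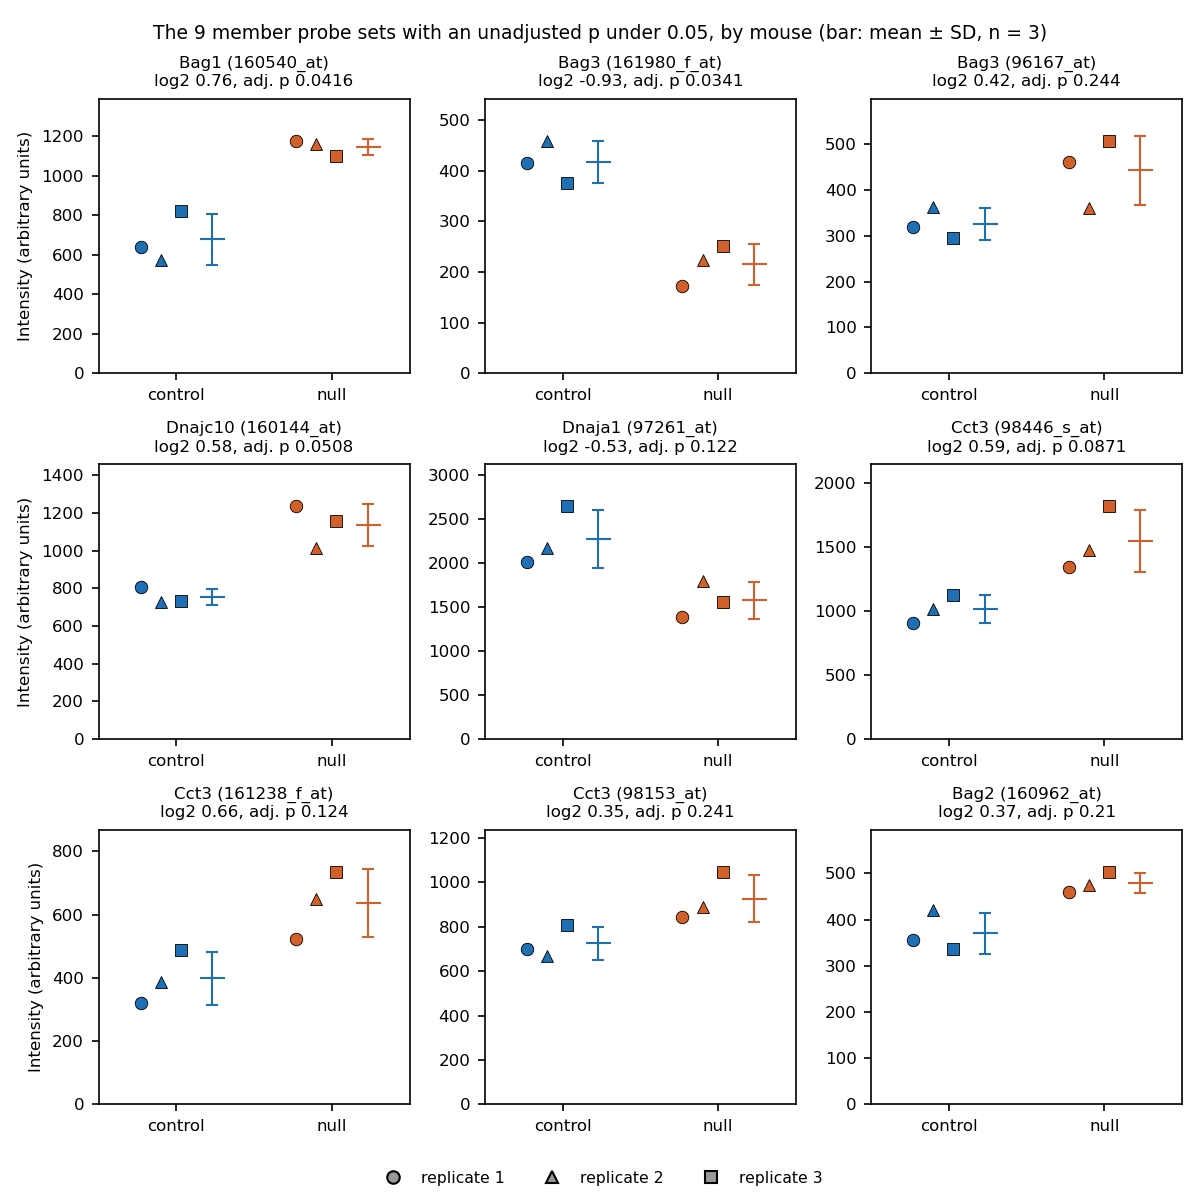
Intensity in each mouse for the 9 member probe sets with an unadjusted p under 0.05, with mean ± SD (n = 3) beside the points and axes from 0. Bag1 and the dimmer Bag3 probe set passed after adjustment, and the 2 Bag3 probe sets have opposite signs.

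Of Hsp60 and Hsp10, 0 of 2 genes passed. Hspd1, or Hsp60, was at 7565, 7168 and 7945 in controls and 6536, 7186 and 8340.1 in nulls on its brighter probe set, with a log2 change of -0.05 (95% interval -0.33 to 0.24). A dim second probe set, at 31.4 to 232.2, gave 0.99 and did not pass (adjusted p = 0.392). Hspe1, or Hsp10, the lid of the Hsp60 chamber, was at 2586, 2082 and 2526 in controls and 2456, 2694 and 2779 in nulls, a log2 change of 0.14 (adjusted p = 0.608). Of 10 other genes of mitochondrial folding, proteolysis and import, Tomm40 rose and 0 fell. Tomm40, the pore through which proteins enter mitochondria, was at 261.6, 306.6 and 247.6 in controls and 607.4, 524.8 and 647.1 in nulls. It rose by 1.09 in log2 (SE 0.14; adjusted p = 0.0104), and the groups did not overlap. Grpel1, the exchange factor of Hspa9, had overlapping groups (log2 change 0.23), as did the protease Lonp1 (log2 change -0.22).

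TRiC is built from 8 different subunits, each of which was measured, with Cct6 in its common form Cct6a and its testis form Cct6b. None of the 9 genes passed (0 of 9). Of their log2 changes 8 were above 0, with a median of 0.19. Over all genes tested 53.9% lay above 0, with a median of 0.03. The 9 genes were read in the same mice, so their signs are not independent. Cct3 stood out among them. Its probe set of highest value was at 908.1, 1016 and 1127 in controls and 1343, 1479.7 and 1819 in nulls, a log2 change of 0.59 (SE 0.15, adjusted p = 0.0871). Its other probe sets gave 0.66 (adjusted p = 0.124) and 0.35 (adjusted p = 0.241). All nulls lay above all controls on each of the 3, although 2 have names that mark possible cross-hybridization and the probe sets share one gene and the same mice.

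Cct5 was at 2414, 2066 and 2431 in controls and 2522, 2906 and 2946 in nulls, also without overlap (log2 change 0.28, adjusted p = 0.298), while a second, dimmer probe set overlapped (log2 change 0.15). Tcp1, the subunit also known as Cct1, had a log2 change of 0.90, the largest in size among the 50 genes by their probe set of highest value, and a wide interval (-0.12 to 1.91). It was at 270.3, 72.7 and 239.0 in controls and 260.4, 321.6 and 414.5 in nulls. One low control value set it apart, and its SE was 0.44 (adjusted p = 0.343). The remaining subunits had overlapping groups, with log2 changes of 0.05 for Cct2, -0.07 for Cct4, 0.23 for Cct6a, 0.17 for Cct6b, 0.12 for Cct7 and 0.19 for Cct8. Of 6 prefoldin subunits and chaperonin cofactors measured, 0 rose and 0 fell; Vbp1 had a log2 change of 0.11 and Pfdn6 of 0.07.

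**Figure D4:**
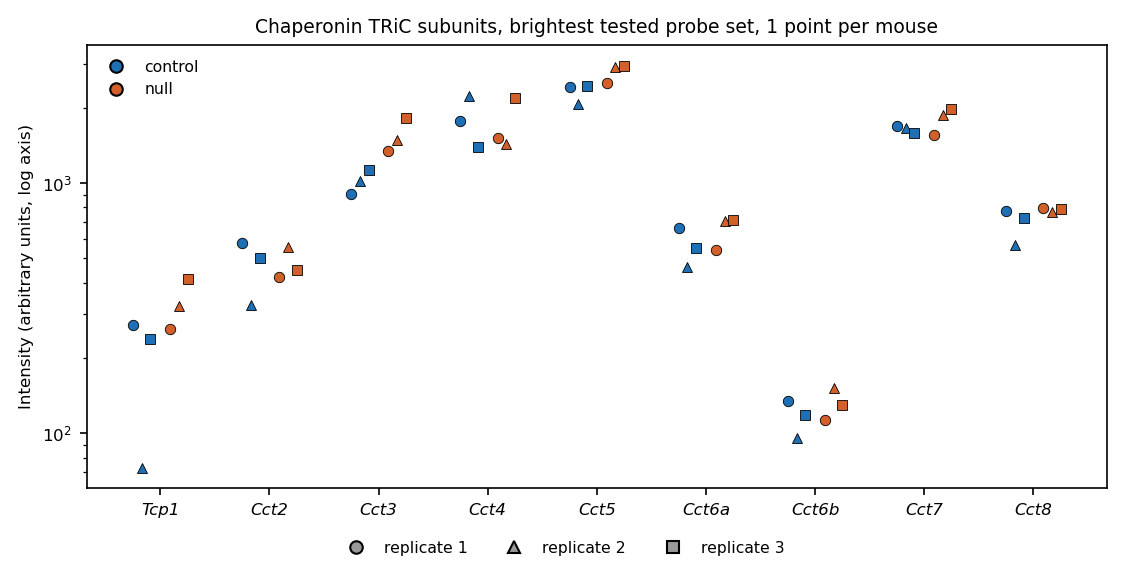
Intensity (log axis) of the 9 TRiC subunit genes in each mouse, on the tested probe set of highest mean value. Nulls lie above all controls for Cct3 and Cct5, the other subunits overlap, and heights of different subunits cannot be set against each other.

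Among small heat shock genes, 0 of 3 tested genes passed. Hspb8, the partner of Bag3, was at 315.2, 405.5 and 404.3 in controls and 345.6, 356.7 and 339.6 in nulls (log2 change -0.10). Hspb2, a muscle form, was at 240.0, 268.2 and 265.4 in controls and 270.6, 329.8 and 261.5 in nulls (log2 change 0.14, adjusted p = 0.667), beside the smooth muscle sums given above. Hspb11 had a log2 change of -0.73, which rested on a single value of 20.4 in null replicate 2 (SE 0.61, adjusted p = 0.594). Hspb1, or Hsp25, was dim throughout, at 45.4 to 75, and was not tested. The factors Hsf2 and Hsf4 were dimmer still, at 13.5 to 27.9 and 3.50 to 13.3, and Hsf1 was not analysed here.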

How the data were processed

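Total RNA of the small intestine of 6 mice was read on 1-colour arrays of probe sets, each mouse on its own array. As deposited, values are linear intensities per probe set; the software and scaling the authors used are not given in the sources used here. Trimmed means are nearly equal. Of 12488 probe sets, 66 controls were set aside. Genes were named from the platform annotation where a probe set had 1 symbol (10833 probe sets), and 2 matching probe sets with several symbols were left out. Replicates were numbered in accession order, and the labels state no pairing. The sample titles are codes, some with a shared beginning, whose meaning is not given.

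Values were used as deposited and turned into log2(value + 12), the pseudocount being the 10th percentile. Probe sets above 109.7, the 40th percentile, in at least 3 arrays were tested: 7601. Null and control were compared by a two-sided limma 3.58.1 fit in R 4.3.3 (lmFit, then eBayes using a trend of variance on level), p-values being adjusted by Benjamini and Hochberg over all 7601, with a threshold of 0.05. The number of mice limits precision, and an exact permutation test of 3 against 3 cannot go below p = 0.1. Promoter windows came from RefSeq; GAA and TTC units were searched in them.

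Named were all members past the threshold and, in each family, the 3 genes of lowest p and the one of highest value; the other members follow, as do list genes past the threshold or, where none passed, of highest value. Dnajb1, Dnajb9, Hspa1a, Hspa1b, Hsph1, Fkbp5, Chordc1, St13, Hmox1, Gadd45a, Mt1, Mt2, Fos, Stub1, Grpel1 and Lonp1 were described in full or picked after their values were seen. The members and lists were chosen with earlier results of these data known. Alternatives were other normalizations, pseudocounts, filters and variance settings, sex as a covariate, males only, leaving out mice, leaving out marked probe sets, and averaging the probe sets of a gene. The counts of members called under averaging are not given here. Endings such as _s_at, _f_at, _r_at, _g_at and _i_at were all read as marks of possible cross-hybridization. The fit was tested on simulated data.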

Additional observations from a re-analysis of the deposited data

How the results depend on the processing

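The 2 calls among the members, Bag1 higher and the dimmer Bag3 probe set lower, lay close to the threshold. The number of member probe sets called higher was 0 with quantile normalization, with equal medians, without a filter, in males only, with eBayes without a trend and with control replicate 2 and null replicate 3 both left out; it was 2 with a pseudocount of 48, with a filter at 288.7 (the 60th percentile) and with robust variances, where Dnajc10 joined Bag1. The number called lower was 0 without a filter, with sex as a covariate, in males only, without a trend, without marked probe sets and with both mice left out. Leaving out 1 mouse gave 0 to 1 called higher and 0 called lower in each of the 6 fits. How many of all probe sets were called in each setting is not given here. The fits in males only or with mice left out also had fewer mice. A lost call can therefore not be read as particular to the members. The median log2 change over member genes, 0.12, was 0.0464 without a filter, 0.0465 with both mice left out and 0.0168 to 0.1515 with 1 mouse left out, the lowest without control replicate 3. The cause was not tested. Of 387 recomputed values for 23 member probe sets, 5 changed sign, those of Hsp90aa1, Hspd1 and Hspb11, none of which passed in any setting run, and 0 called values reversed. Under the stricter filter Dnajb13, Hspb11, Hspb2 and Tcp1 were not tested and have no value. Signal limits the reading of the 20 member probe sets that were not tested.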
